A study of Mus musculus with 8 samples.

Results

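The voltage-gated potassium channel alpha subunits are the pore-forming proteins of the channels through which potassium leaves a neuron when its membrane is depolarised. The genes were chosen by symbol, as every gene whose symbol starts with Kcna, Kcnb, Kcnc, Kcnd, Kcnf, Kcng, Kcnh, Kcnq, Kcns or Kcnv followed by a number, and 40 of the 32285 genes in the count tables met that rule. Nuclei of the cerebral cortex were profiled from 8 C57BL/6J mice at postnatal day 25, with 1 single-nucleus RNA library per animal. The groups were 4 wild type (WT) mice and 4 mice heterozygous for Chd8 (Chd8het, Chd8+/-), 2 of each sex in either group, and the study is described as 4 pairs of animals matched by litter and by sex. The animals carried no other allele or treatment that the sources name, how the Chd8 allele was made is not given in the sources used here, and the medial cortex had been removed before the tissue was frozen. The libraries numbered 1 carried single indices and those numbered 2 carried dual indices, in either sex and genotype. The comparisons asked how the mix of channel genes differs between neuron types and whether it differs between WT and Chd8 heterozygous cortex.

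A channel is assembled from several alpha subunits of the same subfamily, and the subfamilies differ in how fast and at which voltage they open. Kv1 (Kcna) channels act in axons, Kv2 (Kcnb) channels carry delayed-rectifier current in the soma and proximal dendrites, Kv3 (Kcnc) channels open and close quickly and let interneurons fire at high rates, and Kv4 (Kcnd) channels carry the fast-inactivating current of dendrites. Kv7 (Kcnq) channels carry the M-current that limits repetitive firing, the Kcnh genes encode the EAG, ERG and ELK types, and the Kcnf, Kcng, Kcns and Kcnv genes encode electrically silent subunits that form no channel of their own and modify Kv2 channels. Which of them a neuron makes shapes its spikes and its firing pattern.

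Over all 8 libraries 97772 barcodes carried 69.5 to 98.1 M UMIs (unique molecular identifiers, which count captured RNA molecules; M is mega) per library. Of these, 82168 had 500 genes or more and no more than 5% of UMIs from mitochondrial genes, 4000 were predicted doublets and were removed, and 78168 were kept. Nuclei were assigned to cell types by lists of marker genes, so every cell type name means resemblance to that type and no more. The gate placed 68132 nuclei in a broad class and gave 31369 neurons a type, 27463 excitatory and 3906 inhibitory. Between 1.70% of microglia and 24.6% of L5 ET nuclei lay near the limit of their gate. The same markers set the gate, so their rise in their own type follows from it and is no separate check. Excitatory types were compared only with each other, interneuron types only with each other, and broad classes with the other broad classes. Against the mean of those compared, every listed gene present was raised at least 2-fold, except for 1 of 5 in the Pvalb list and 1 of 5 in the L5 IT list. Fewer were highest in their own type: 3 of 5 in the L5 IT list, 5 of 7 in the L6 CT list, 4 of 5 in the Pvalb list and 5 of 6 in the interneuron list. In the other lists all genes present were highest there within that comparison. Outside it some were not, such as Rasgrf2 of the L2/3 IT list, which was higher in the Lamp5 type. Barcode sequences recurred between libraries for 796 of 81364 distinct barcodes, 20 to 38 for each pair of libraries. Chd8 itself stood at 73.6, 80.1, 78.9 and 79.0 CPM (counts per 1000000 UMIs of that library and cell type) in the pooled excitatory neurons of the WT animals, listed here and below as male 1, male 2, female 1 and female 2. The libraries labelled Chd8het, listed likewise, were at 75.3, 89.3, 77.0 and 77.1 CPM. The 2 groups overlapped. Over the 17 cell types tested below, the log2 change of Chd8 (Chd8het minus WT) ran from -0.23 in the Vip type to 0.32 in L5 ET neurons. Since how the allele was made is not given, these counts of 3' ends were not taken as a check of it. The genotypes below are those of the labels. The level in microglia is given beside low values as a rough guide to free RNA from other nuclei. It may lie above the background of neurons. Microglia had medians of 1306 to 1691 UMIs per nucleus over the libraries, and L5 ET nuclei 9976 to 18241. The interneuron marker Gad2 was at 19.7 CPM in microglia and at 2.62 to 7.89 in the excitatory types.

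Long genes held most of the channel RNA. Kcnh7, an ERG channel, had 1198522 UMIs in the gated neurons, 21.6% of all UMIs of the 40 genes. Kcnq5, an M-current subunit, followed with 1169671 UMIs (21.1%), and Kcnd2, the main Kv4 subunit of pyramidal cell dendrites, with 1063224 (19.1%). Kcnb2 held 9.08% and Kcnq3, which joins other Kcnq subunits in M-channels, 8.85%. Kcnc2 (4.25%), Kcnh1, Kcnh5, Kcnq1 and Kcnd3 completed the 10 most abundant. Per kb of genomic span the order of levels differed: Kcna1, a compact gene (5.99 kb) for an axonal subunit, came first with 5298 UMIs per kb, ahead of Kcnh7 (2442), Kcnq5 (2076), Kcnd2 (2067) and Kcnq3 (1637). Whether reads in introns were counted is not given in the sources used here, so neither order is one of transcript numbers. At the other end Kcna7 had 24 UMIs, Kcna5 47 and Kcna10 75 in all neurons together, and these 3 genes passed no filter on low counts. Kcng4 (178 UMIs), Kcnv2 (326), Kcna3 (397) and Kcnh6 (864) passed it in the comparison of neuron classes but not in that of neuron types. Of the 40 genes, 11 to 18 had a mean level at or below that in microglia in each neuron type. By the microglial guide alone their levels there are not told apart from background, nor are they shown to be background.

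The mix of subfamilies differed between neuron types. Kv3 genes made up 36.1% ± 2.36 of all channel UMIs (SD, n = 8 libraries) in the Pvalb type and 29.6% ± 1.54 in the Sst type. The share was 13.1% ± 2.11 in the Vip type, 7.42% ± 1.08 in the Lamp5 type, 4.09% ± 0.519 in L2/3 IT neurons and 1.12% ± 0.223 in L5 ET neurons. Pvalb and Sst libraries did not overlap with each other or with any other neuron type. Kv7 genes held their largest share among neuron types in L5 IT neurons, 43.4% ± 1.44, against 20.1% ± 1.61 in the Pvalb type. The EAG, ERG and ELK genes held 38.3% ± 3.04 in L6 CT neurons and 8.30% ± 1.15 in the Sst type. In oligodendrocyte precursors (OPC) Kv4 genes held 58.1% ± 2.39, and in oligodendrocytes Kv1 genes held 19.9% ± 6.32, with a range over libraries of 10.5% to 28.6%. Silent subunits held 0.617% in L6 CT neurons and 1.48% in the Lamp5 type. All of these are shares of UMIs without regard to the span of the genes, and not shares of transcript numbers.

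**Figure D1:**
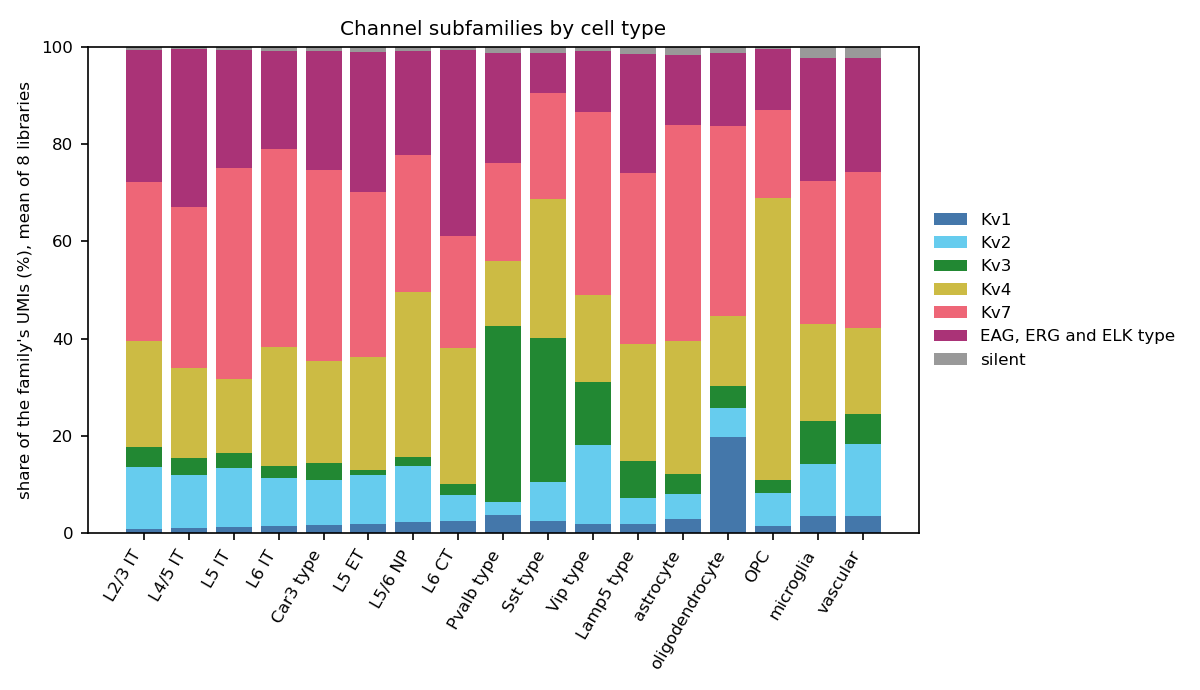
Share of channel UMIs (percent, y axis) held by each subfamily in 17 cell types (x axis), as means over 8 libraries, with each bar summing to the whole family. The Kv3 segment takes 36.1% in the Pvalb type and 1.12% in L5 ET neurons, and the Kv4 segment takes 58.1% in OPC.

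Interneurons differed from excitatory neurons in 19 of the 37 channel genes tested: 7 were higher and 12 lower, at an adjusted p under 0.05 and at least 1 log2 unit (edgeR quasi-likelihood test, Benjamini-Hochberg adjustment over all 20639 genes, library as a block). By the same rule 20% of all genes tested were called, 9.43% higher and 10.6% lower. The median log2 difference (interneuron minus excitatory) was -0.53 over the 37 channel genes and 0.01 over all genes. The Kv3 genes Kcnc1 and Kcnc2 were higher and Kcnc4 was lower, the Kv2 gene Kcnb2 was lower, and of the EAG, ERG and ELK type 1 of 8 was higher and 4 were lower. None of the 3 Kv4 genes was called. Among Kv1 genes 1 of 5 was higher and 1 lower, among Kv7 genes 1 of 5 was higher and 1 lower, and among the silent subunits 2 of 10 were higher and 3 lower.

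**Figure D2:**
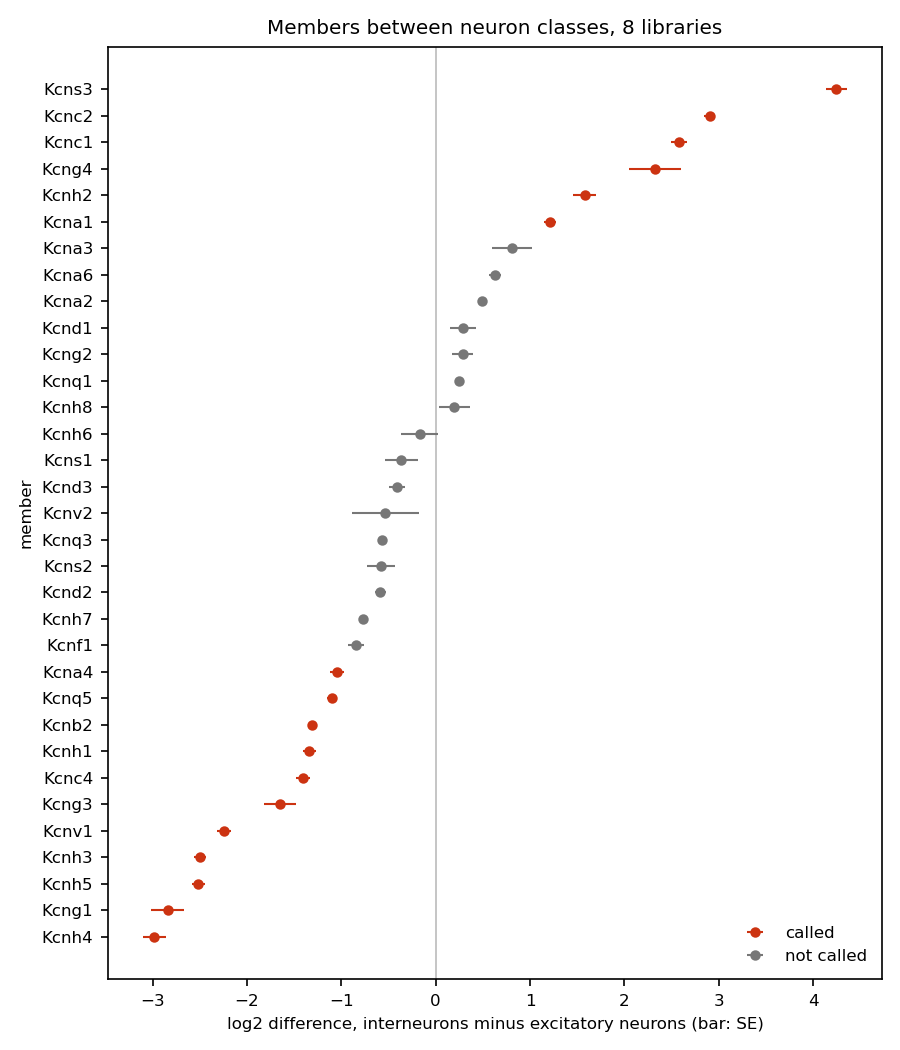
Log2 difference of interneurons minus excitatory neurons (x axis, with standard error bars) for 33 of the 37 channel genes tested (y axis). Kcns3 at 4.25 and Kcnc2 at 2.91 lie at the upper end and Kcnh4 at -2.98 at the lower end.

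The bases before the start of 3 genes are shown because these genes were called in opposite directions in that contrast and recur in the values below: Kcnc1 and Kcnc2 were higher in interneurons and Kcnh5 in excitatory neurons. The sequences are the 250 bases before the outermost RefSeq start site (GRCm38.p6), 5′ to 3′ on the strand of the gene, and the capitals mark GC boxes (GGGCGG or its reverse complement CCGCCC), the motif of Sp-family factors at CpG-island promoters. They lie at chr7:46396218-46396467 (plus strand) for Kcnc1, chr10:112269767-112270016 (plus strand) for Kcnc2 and chr12:75177333-75177582 (minus strand) for Kcnh5.
Kcnc1: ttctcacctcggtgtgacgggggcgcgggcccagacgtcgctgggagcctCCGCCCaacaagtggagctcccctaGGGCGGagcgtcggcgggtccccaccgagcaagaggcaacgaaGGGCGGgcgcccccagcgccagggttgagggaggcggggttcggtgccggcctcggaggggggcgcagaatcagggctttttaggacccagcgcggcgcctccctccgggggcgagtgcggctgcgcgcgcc
Kcnc2: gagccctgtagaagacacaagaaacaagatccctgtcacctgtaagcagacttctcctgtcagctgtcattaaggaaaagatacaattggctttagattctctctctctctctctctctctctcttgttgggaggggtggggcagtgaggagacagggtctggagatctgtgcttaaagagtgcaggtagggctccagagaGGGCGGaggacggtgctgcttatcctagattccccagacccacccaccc
Kcnh5: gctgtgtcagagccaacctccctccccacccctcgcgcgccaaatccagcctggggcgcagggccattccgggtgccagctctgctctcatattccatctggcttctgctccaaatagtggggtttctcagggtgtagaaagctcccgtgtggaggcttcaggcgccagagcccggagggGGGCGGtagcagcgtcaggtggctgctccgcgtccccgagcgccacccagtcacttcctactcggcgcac
The Kcnc1 window holds 3 GC boxes, 30 CG pairs and 74.4% G and C. The window of Kcnc2, for which RefSeq lists 4 starts, holds 1 GC box, 2 CG pairs and 52.4% G and C, and that of Kcnh5 1 GC box, 16 CG pairs and 65.6% G and C. Over all 32851 RefSeq windows of that length 32.7% hold a GC box and the median is 6 CG pairs. Of the 40 channel genes 25 had an entry, with 30 windows, and 17 of the 30 windows (56.7%) hold a GC box. The windows shown for the 2 Kv3 genes that moved together thus differ in base composition. For Kcnc2 this covers 1 of its 4 starts, and the motif matches describe letters only.

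Kcnc2, a Kv3 subunit of fast-spiking interneurons, ranged from 2951 CPM through a median of 3556 to 3917 in the Pvalb type. In the Sst type its mean was 2469 ± 298 CPM (SD, n = 8), in the Vip type 874 and in the Lamp5 type 504. L5 ET neurons had 71.1 CPM, L5/6 NP neurons 69.8 and L6 CT neurons 91.6. These last 3 levels lie below that in microglia, 193 CPM. The other excitatory types tested had more. L2/3 IT libraries lay at 355 to 495 CPM and overlapped with those of the Lamp5 type, at 353 to 621. L4/5 IT libraries lay at 228 to 460 CPM, L5 IT at 222 to 375 and the Car3 type at 259 to 380. L6 IT libraries, at 137 to 225 CPM, lay around the microglial level. The lowest Pvalb library, at 2951 CPM, lay above the highest library of every other type, and the Pvalb libraries of both genotypes overlapped (2951 to 3917 CPM in WT and 2987 to 3748 in Chd8het). Against the mean of the other 11 neuron types Kcnc2 was 3.53 log2 units higher in the Pvalb type (SE 0.06), 2.93 higher in the Sst type (SE 0.06) and 1.33 higher in the Vip type (SE 0.08). In L5/6 NP neurons it was lower (log2 -2.61, SE 0.12, adjusted p = 6.7e-37, edgeR quasi-likelihood test).

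Kcnc1, the Kv3 subunit with which Kcnc2 forms channels, ran from 339 to 456 CPM in the Pvalb type with a median of 394, against 44.0 CPM in microglia. It was 2.88 log2 units higher there than in the other neuron types (SE 0.05), 1.28 in the Sst type (SE 0.07), 1.26 in the Vip type (SE 0.10) and 1.35 in the Lamp5 type (SE 0.07). In L5 ET neurons, at 11.3 CPM, it was the lowest of the called genes, log2 -2.63 (SE 0.14, adjusted p = 1.4e-32, edgeR). The Pvalb libraries lay above those of the other types for Kcnc1 too. Kcnc4, also a Kv3 gene, went the other way: it stood at 2.28 ± 1.07 CPM in the Pvalb type (2 to 8 UMIs per library) and its log2 difference there was -2.47, at a level below the 12.9 CPM of microglia.

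Kcns3, a silent subunit that modifies Kv2 channels, had the largest positive difference of the family between the neuron classes. Its level was 77.6 to 123 CPM in the Pvalb type (median 109), with means of 104 CPM in the Lamp5 type, 70.4 in the Sst type and 15.5 in the Vip type. In pooled excitatory neurons it had 4.02 CPM, below the 5.06 of microglia. The Pvalb and Lamp5 libraries overlapped, and each of them lay above every Vip library and every library of an excitatory type. The difference between interneurons and excitatory neurons was 4.25 log2 units (SE 0.11, adjusted p = 1.3e-14, edgeR quasi-likelihood test). Against the other neuron types it was 3.77 in the Pvalb type (SE 0.08), 3.67 in the Lamp5 type (SE 0.10) and 3.02 in the Sst type (SE 0.12), and it was the most reduced gene of the family in L4/5 IT (log2 -3.19, SE 0.23), L5 IT (-1.67, SE 0.15) and L6 CT neurons (-2.37, SE 0.15). Kcng4, another silent subunit, was 2.32 log2 units higher in interneurons (SE 0.28, adjusted p = 1.9e-06, edgeR), on 5 to 13 UMIs per library in interneurons, and its highest level was 3.36 CPM in the Pvalb type, close to the 3.33 of astrocytes.

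**Figure D3:**
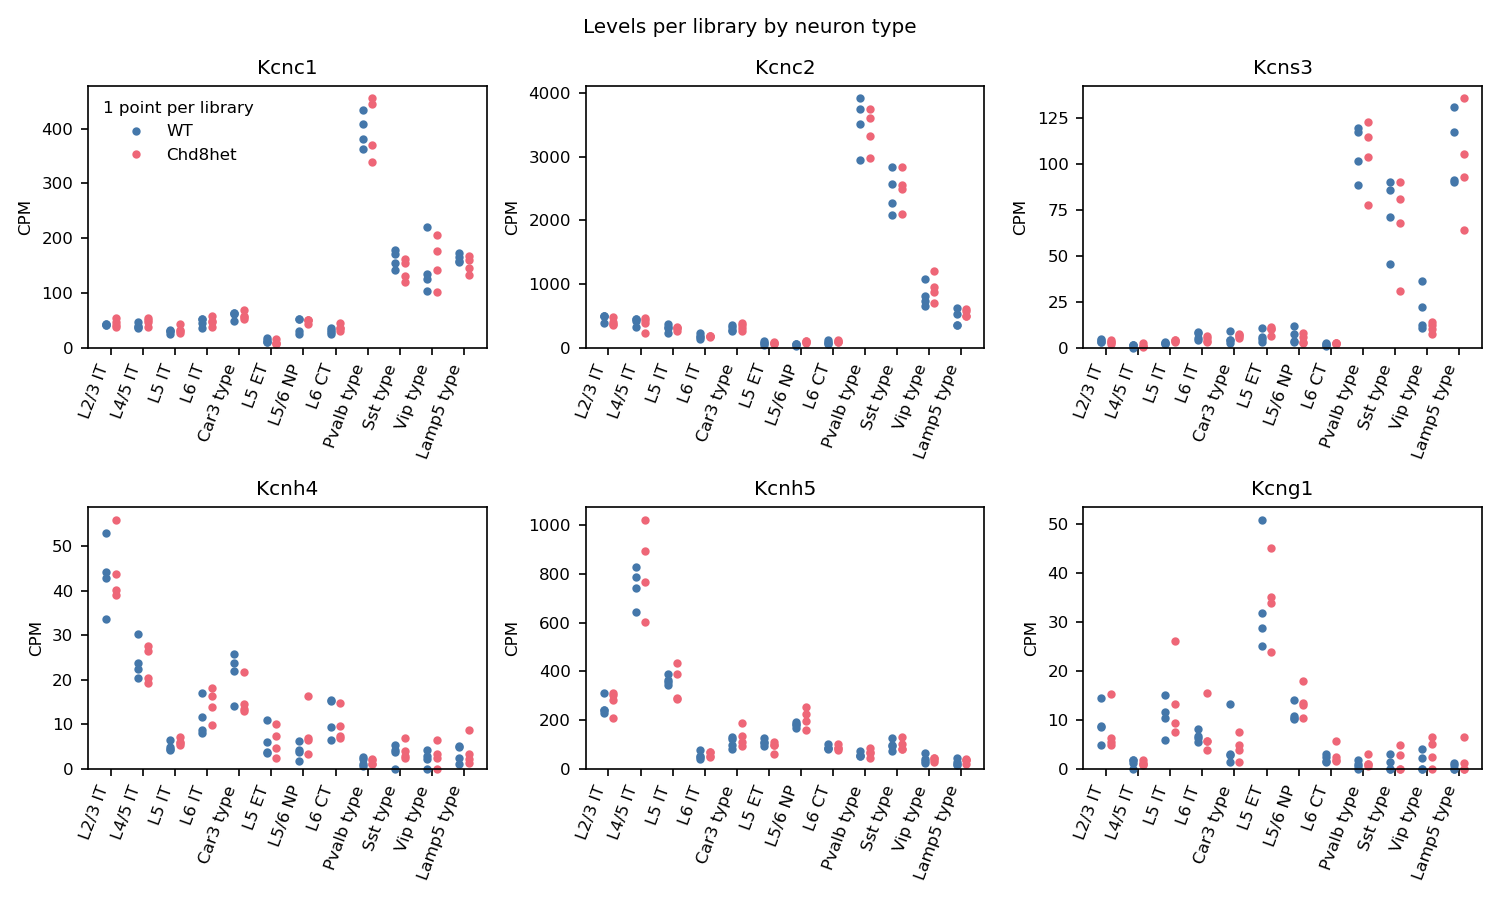
Level (CPM, y axis) in each of 8 libraries of Kcnc1, Kcnc2, Kcns3, Kcnh4, Kcnh5 and Kcng1 in the neuron types (x axis), 1 point per library. Kcnc2 lies between 2951 and 3917 in the Pvalb type, and Kcng1 lies between 23.9 and 50.9 in L5 ET neurons.

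The Pvalb type had the most called channel genes of the 12 neuron types. Of 33 channel genes tested 23 were called there, 9 higher and 14 lower, and 18.1% of all 12956 genes were called by the same rule, 7.62% higher and 10.5% lower. Over all 12 contrasts 101 of 396 tests on channel genes were called, against 9.95% of all gene tests. Besides Kcnc1, Kcnc2 and Kcns3, the higher genes in the Pvalb type included the axonal Kv1 subunits Kcna1 (250 CPM, log2 1.91) and Kcna2 (76.3 CPM, log2 1.02), the ERG gene Kcnh2 (9.12 CPM, log2 1.54), Kcns1 and Kcng2. Kcns1 libraries, at 1.24 to 8.64 CPM, lay around the 4.78 of microglia. Kcng2 was at 3.22 to 11.5 CPM, with 3.46 in microglia and 15.8 in astrocytes. The 14 lower genes included the Kv2 subunit Kcnb2, at 219 to 357 CPM, around the 253 of microglia. Kcnd3, a Kv4 subunit, was lowest of all, at 19.7 to 73.9 CPM (median 31.0) against 219 in pooled excitatory neurons and 57.5 in microglia, a log2 difference of -2.51 (SE 0.13, adjusted p = 9.8e-33, edgeR). The Pvalb libraries all stood below those of the Lamp5 type, whose mean was 323 CPM.

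The other interneuron types shared some of these genes. In every neuron type the same 33 channel genes were tested. Of these, 3 calls are 9.09%, 5 are 15.2%, 7 are 21.2%, 8 are 24.2%, 9 are 27.3%, 11 are 33.3% and 12 are 36.4%. In the Sst type 11 channel genes were called, with a background of 11.8%, and 3 of them, Kcns3, Kcnc2 and Kcnc1, were higher (background 6.31%). The lowest there was Kcnh7, at 413 to 625 CPM (median 521), log2 -2.01 (SE 0.06), which lies around the microglial level of 593 CPM. In the Vip type 8 were called (background 12.6%) and in the Lamp5 type 12 (background 12.5%). Kcnh5, an EAG channel, was the most reduced in both types, with log2 -1.74 in the Vip type (SE 0.15) and -2.19 in the Lamp5 type (SE 0.12). Its means of 41.1 CPM in the Vip type and 30.9 in the Lamp5 type were both below the 77.4 of microglia.

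**Figure D4:**
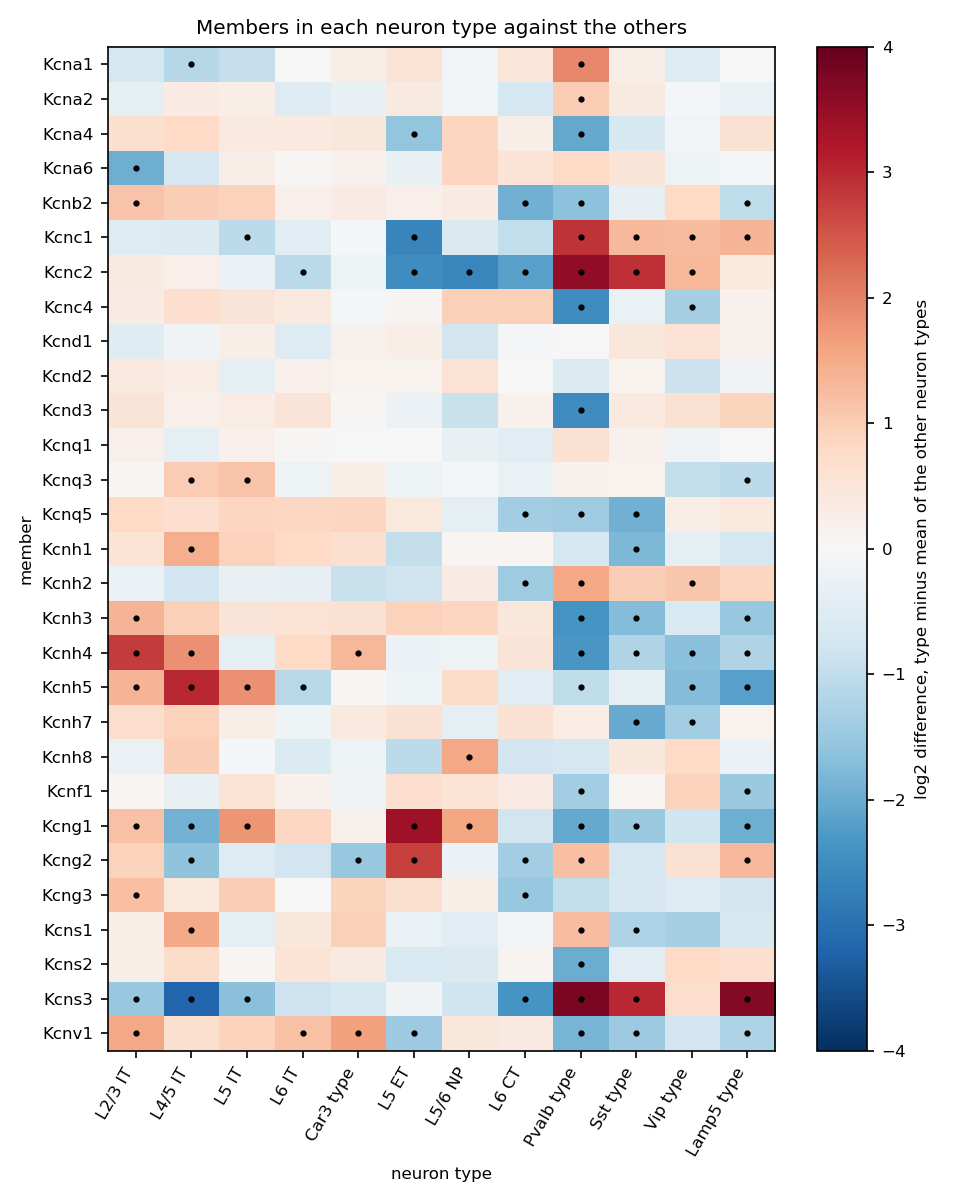
Log2 difference of each neuron type against the mean of the other types (colour) for 29 of the 33 channel genes tested (rows) and 12 neuron types (columns), where a dot marks an adjusted p under 0.05 with at least 1 log2 unit. Among these genes the Pvalb column has 20 dots and the L6 CT column has 7, all of the latter on lower values.

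In L2/3 IT neurons 9 channel genes were called (background 9.59%), among them 3 of 7 EAG, ERG and ELK genes and 3 of 8 silent subunits as higher. Of these Kcnh4, an ELK channel, was the most raised: 33.6 to 55.9 CPM (median 43.4), log2 2.81 (SE 0.07, adjusted p = 2.3e-55, edgeR). The silent subunit Kcnv1 (42.0 ± 7.25 CPM, log2 1.54, SE 0.06) and the ELK gene Kcnh3 (60.8 ± 7.81 CPM, log2 1.35, SE 0.05) followed. Kcna6, a Kv1 subunit, was lowest, at 10.5 ± 2.10 CPM (log2 -1.97, SE 0.07), under the 19.3 of microglia. In L4/5 IT neurons 9 were called as well (background 9.98%), led by Kcnh5 at 604 to 1022 CPM (median 776), log2 3.03 (SE 0.05), with Kcnh4 at 1.83 (SE 0.12). The highest and the lowest L4/5 IT library for Kcnh5 were both labelled Chd8het, and each of the 8 lay above every library of the other neuron types. Kcns1 was raised by 1.51 (SE 0.18) on 3 to 26 UMIs per library, and its 5.82 CPM lay close to the 4.78 of microglia.

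L5 IT neurons had 5 calls (background 6.87%), with Kcnh5 at log2 1.81 (SE 0.06), the silent subunit Kcng1 at 1.77 (SE 0.12) and Kcnq3 at 1.14 (SE 0.04). Kcnq3 stood at 1652 ± 219 CPM in L5 IT neurons and overlapped with the 1557 ± 252 CPM of L4/5 IT neurons. L6 IT neurons had 3 calls (9.09%, background 6.58%), among them Kcnv1 at 1.18 (SE 0.09) and Kcnh5 at -1.11 (SE 0.09). Kcnh5 was at 39.6 to 77.9 CPM there, around or below the 77.4 of microglia. The Car3 type had 3 (background 5.93%): Kcnv1 at 1.63 (SE 0.11), Kcnh4 at 1.33 (SE 0.18) and Kcng2 at -1.53 (SE 0.46), the last on 0 to 5 UMIs per library and no longer called with a stricter marker gate (log2 -0.92, adjusted p = 0.34, edgeR).

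L5 ET neurons, the large projection neurons to brainstem and spinal cord, had 7 calls (background 9.32%). Kcng1 was at 28.9, 50.9, 25.1 and 32.0 CPM in the 4 WT libraries, in the order given above, and at 35.1, 45.2, 23.9 and 33.9 CPM in the 4 Chd8het libraries, on 19 to 51 UMIs. The genotypes overlapped, and the level in microglia was 6.23 CPM. Against the other neuron types Kcng1 was 3.38 log2 units higher (SE 0.15, adjusted p = 3.8e-37, edgeR), and Kcng2, likewise silent, was 2.74 higher (SE 0.20) at 20.1 ± 5.16 CPM, close to the 15.8 CPM of astrocytes. L5/6 NP neurons had 3 calls (background 6.66%): Kcng1 at 1.58 (SE 0.20), Kcnc2, given above, and the ELK gene Kcnh8 at 1.54 (SE 0.29). The Kcnh8 value rested on WT female 1, at 72.4 CPM, since the other 7 libraries lay between 3.78 and 11.4 CPM. Without that library the difference was 0.54 (adjusted p = 0.13, edgeR). The summed markers of OPC, where Kcnh8 is high, were at 65.2 CPM in the L5/6 NP nuclei of that library and at 109 to 206 CPM in the other 7.

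L6 CT neurons had 8 calls (background 9.53%), all of them lower (background for lower calls 6%). Kcns3 was lowest, and the others included Kcnc2, Kcnb2, Kcnq5, Kcnh2, Kcng3 and Kcng2. Several of these stood below microglia there. Kcns3 was at 0.855 to 2.71 CPM over libraries (microglia 5.06) and Kcng2 at 0.858 to 2.45 (microglia 3.46). The mean of Kcnh2 was 1.30 CPM (microglia 2.40) and that of Kcng3 1.79 (microglia 3.09). Kcnb2 ran from 161 to 379 CPM in L6 CT neurons (median 196, microglia 253), against 1409 ± 70.9 CPM in L2/3 IT neurons. Kcnq5 stood at 741 ± 168 CPM in L6 CT neurons, 565 ± 82.7 in the Sst type and 3084 ± 419 in the Car3 type. Of the 33 genes tested in these contrasts 29 were called in at least 1 neuron type, as were 32.8% of all 12956 genes. The 4 that were called in none included Kcnd1, Kcnd2 and Kcnq1. Kcnd2 ranged over types from 1200 CPM in the Vip type to 3064 in L5/6 NP neurons, and Kcnq1 from 186 to 378 CPM. Of the genes not yet described, Kcna4 ran over type means from 5.20 CPM in the Pvalb type to 34.7 in L5/6 NP neurons, Kcnf1 from 3.91 to 18.0 (microglia 18.2), Kcns2 from 1.34 to 7.71, Kcng3 from 1.79 to 10.1 and Kcnh1 from 76.9 to 553. Kcnh6, Kcna3, Kcnv2, Kcna5, Kcna7 and Kcna10 stayed at or below 3.51 CPM in every neuron type. L6b neurons (120 nuclei) and striatal projection neurons (221 nuclei) were too few to test.

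Reads of overlapping genes may be counted for either, since the strandedness of the counting is not given in the sources used here. Kcnq1 overlaps Kcnq1ot1 on the other strand, Kcnd3 overlaps Kcnd3os, Kcnh1 overlaps Hhat, Kcnh3 overlaps Mcrs1 and Kcnh7 overlaps Gca. Further channel genes overlap other annotated genes, among them Kcnb2, Kcnq5, Kcnq3 and Kcns3 on the other strand. On the same strand Kcnb2, Kcnq5, Kcnd2 and Kcnq1 are among those with an overlap. The values of all such genes are uncertain to that extent.

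Lists of genes that work with the alpha subunits, chosen with earlier results of these data known, were compared between neuron classes in the same test, in which 20% of all genes were called. Of 15 auxiliary subunits, which set gating and surface expression, 12 were tested, 4 were higher in interneurons and 3 lower, with a median log2 difference of 0.47. Kcnip1, a calcium-binding partner of Kv4, was 5.13 higher and Dpp6 1.27 higher, whereas Dpp10 was at -2.94 and Kcnip3 at -2.67. Of 14 genes for clustering and anchoring, 1 was higher (Cntnap2, the partner of Kv1 at the juxtaparanode, log2 1.85) and 1 lower (Dlg1, log2 -2.08), with a median of -0.25. Dlg4 (-0.95) and Dlg2 (-0.59), scaffolds of the synapse, stayed under 1 log2 unit. Of 11 calcium- and sodium-activated potassium channel genes 2 were higher and 3 lower (median -0.27). Kcnmb2, an auxiliary subunit of BK channels, was 6.20 log2 units higher, Kcnt2 and Kcnmb4 were at -1.44 and -1.65, and Kcnma1, the pore of BK channels, was at -0.98.

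Some channel genes were highest outside neurons. Kcna1 had a mean of 448 CPM in oligodendrocytes, above the 250 CPM of the Pvalb type. Its libraries stood at 607, 347, 507 and 389 CPM in the 4 WT libraries, in the order given above, and at 563, 241, 558 and 373 CPM in the 4 Chd8het libraries. Kcnh8 had 224 to 310 CPM in OPC (median 277) against a mean of at most 14.7 in any tested neuron type (with 1 library at 72.4, given above), and Kcnd2 had 4003 to 4367 CPM in OPC. Kcnd1, the remaining Kv4 gene, had its highest mean in microglia, 18.4 ± 7.90 CPM on 5 to 21 UMIs per library.

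Between genotypes no channel gene was called. In 17 cell types 419 tests on channel genes were made with edgeR's quasi-likelihood test in a model of sex and genotype, 0 passed an adjusted p under 0.05, and the background was 0% of 183117 gene tests. At an unadjusted p under 0.05 there were 20 of the 419, and 4759 of the 183117. DESeq2 called 0 as well, with 11 of the 419 and 2143 of all gene tests at an unadjusted p under 0.05. With the 4 pairs of sex and replicate number as a block, 0 of 435 were called, and 0.011% of all gene tests were called. In that fit 60 of the 435 were at an unadjusted p under 0.05, and 11702 of 191729 gene tests. The difference of the genotype effect between interneurons and excitatory neurons was tested for 37 channel genes. It was called for 0, with a background of 0% of genes. At an unadjusted p under 0.05 were 3 channel genes (Kcnb2, Kcnd1 and Kcnv2, chosen after their values were seen) and 825 of all 20639 genes, and DESeq2 called 0 with 1 channel gene and 444 of all genes at an unadjusted p under 0.05. These counts of 0 do not show that the levels did not differ.

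The median log2 change (Chd8het minus WT) of the tested channel genes lay between -0.06 and 0.10 in the 12 neuron types and was 0.31 in oligodendrocytes, 0.20 in astrocytes, 0.20 in microglia, 0.09 in vascular cells and -0.03 in OPC. The median over all genes in the same types lay between -0.00 and 0.01. The markers of excitatory neurons were higher with it: summed, they reached 525 to 710 CPM in WT oligodendrocytes and 637 to 901 in Chd8het, with 6 of 6 higher in mean and 0 at zero, and in astrocytes 619 to 818 CPM in WT and 748 to 913 in Chd8het, again 6 of 6. In microglia they were at 996 to 1309 CPM in WT and 1110 to 1363 in Chd8het, 4 of 6 higher. The interneuron markers were at 227 to 355 CPM in WT microglia and 305 to 679 in Chd8het, with 5 of 6 higher and 0 at zero, and at 3902 to 5202 CPM in WT oligodendrocytes and 3855 to 4506 in Chd8het, 4 of 6 higher. The part of neuronal RNA in these glial medians was not tested.

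Libraries of the 2 genotypes did not overlap in 14 of the 419 combinations of channel gene and cell type, 13 higher in Chd8het and 1 lower, where 2.11% of all gene tests did not overlap, 1.38% higher and 0.735% lower. The lower one was Kcna1 in L6 CT neurons. The higher ones included Kcnc1, Kcnc4 and Kcnh7 in oligodendrocytes, Kcnd2 and Kcnh7 in astrocytes, Kcna4 and Kcnh1 in the Lamp5 type, Kcnb2 in the Pvalb type and in L6 CT neurons, and Kcnc2 in L5/6 NP neurons.

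The 5 combinations with the smallest unadjusted p were all higher in Chd8het in 4 of 4 pairs, and none passed the adjustment. Kcnc2 in L5/6 NP neurons was at 17.9, 52.8, 52.1 and 63.4 CPM in the 4 WT libraries, in the order given above, and at 103, 74.9, 99.8 and 94.2 CPM in the 4 Chd8het libraries. Every Chd8het library lay above every WT library, and all 8 lay below the 193 CPM of microglia. The log2 change was 0.91 (SE 0.24, unadjusted p = 0.0020, edgeR quasi-likelihood test), and with predicted doublets kept it was 0.34. The adjusted p was 1.00 by that test and ranged from 0.0043, without a filter on low counts, to 1.00 over the alternatives. Interneuron markers summed to 53.7 to 71.0 CPM in these nuclei in WT and 82.0 to 174 in Chd8het, 6 of 6 higher and 0 at zero. Markers of the Pvalb type summed to 5.79 to 16.1 CPM in WT and 9.64 to 16.3 in Chd8het, 3 of 5 higher. Those of the Sst type summed to 531 to 774 CPM in WT and 388 to 766 in Chd8het, 2 of 5 higher. The largest part of this last sum was Trhde, at 416 CPM in L5/6 NP neurons. Trhde was also at 555 CPM in L4/5 IT neurons and 614 in the Car3 type. The Sst sum is thus no measure of RNA from Sst nuclei here. The part of these markers in the result was not tested.

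Kcnb2 was at 161, 168, 191 and 175 CPM in the L6 CT neurons of the 4 WT animals, and at 224, 379, 221 and 201 CPM in the 4 Chd8het libraries. The groups did not overlap, and Chd8het male 2 stood apart from the other 3. The log2 change was 0.52 (SE 0.18, unadjusted p = 0.017, edgeR quasi-likelihood test), 0.29 without Chd8het male 2 and 0.31 with doublets kept. Markers of L5/6 NP neurons (279 CPM) and of L2/3 IT neurons (69.4 CPM) were highest in the same library of L6 CT nuclei, and their part was not tested. In the Pvalb type Kcnb2 was at 219 to 231 CPM in WT and 253 to 357 in Chd8het, where Chd8het male 2 was highest again, with log2 0.33 (SE 0.11) and 0.22 without that library. Excitatory markers there summed to 349 to 480 CPM in WT and 440 to 554 in Chd8het, 5 of 6 higher and 0 at zero, and their part was not tested. Kcnb2 was highest of the 8 libraries in Chd8het male 2 in 15 of 17 cell types. Of 4844 genes tested in all 17, 112 (2.31%) had 1 library highest in at least 15, and in 50 of these it was Chd8het male 2.

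Kcnh7 in oligodendrocytes was at 218, 275, 345 and 320 CPM in the 4 WT libraries, in the order given above, and at 358, 418, 355 and 520 CPM in the 4 Chd8het libraries. The 2 groups did not overlap, and all 8 lay below the microglial mean. The log2 change was 0.49 (SE 0.14, unadjusted p = 0.0063, edgeR quasi-likelihood test), and 0.20 with doublets kept. In microglia Kcnh7 was at 421 to 600 CPM in WT and 598 to 790 in Chd8het, log2 0.40 (SE 0.13), where the groups overlapped. The neuronal markers in both cell types are given above.

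**Figure D5:**
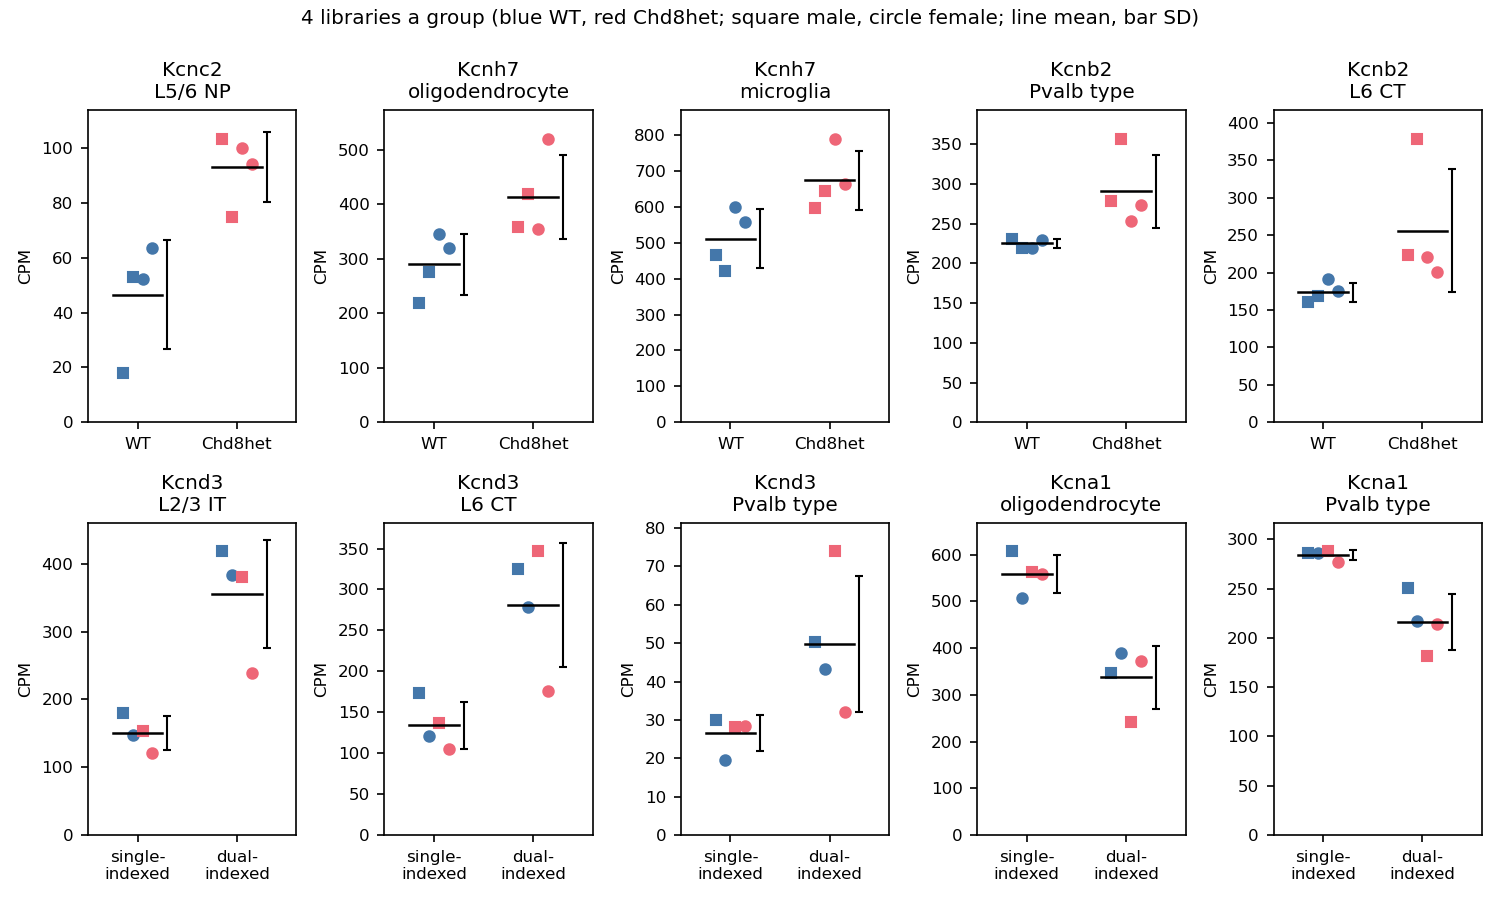
Level (CPM, y axis) in each library, WT and Chd8het side by side, of the 5 combinations with the smallest unadjusted p (upper row), and of Kcnd3 and Kcna1 by index type, single or dual, in chosen cell types (lower row). Chd8het male 2 stands at 379 for Kcnb2 in L6 CT neurons, and Kcnd3 in L2/3 IT neurons is at 120 to 180 in the 4 single-indexed libraries and 239 to 418 in the 4 dual-indexed ones.

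Index type, which is the same as the replicate number and balanced over genotype and sex, separated more channel genes than genotype did. In 91 of the 419 combinations (21.7%) the 4 single-indexed libraries did not overlap with the 4 dual-indexed ones, 40 higher and 51 lower with single indices, against 15.8% of all gene tests, 8.58% higher and 7.21% lower. Kcnd3 was lower with single indices in 14 of 17 cell types and in L2/3 IT neurons stood at 180, 147, 153 and 120 CPM in the single-indexed libraries and 418, 383, 381 and 239 in the dual-indexed ones. Kcna1 was higher with single indices in 11 of 17, in oligodendrocytes at 507 to 607 CPM against 241 to 389. Kcnq3 was lower in 9 and Kcna2 higher in 8, while Kcnb2 separated in 0. Library preparation, litter and index type cannot be told apart here. Each pair lies within 1 index type, so the 4 of 4 pairs given above already fix the sign of the 5 genotype differences within index types. Kcnc2 in L5/6 NP neurons was 66.6 CPM higher in Chd8het with single and 26.5 with dual indices, and Kcnb2 in L6 CT neurons 46.3 and 118 CPM higher.

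The summed level of the 40 genes was 11500 ± 429 CPM in excitatory neurons and 10006 ± 267 in interneurons. Over the 12 tested neuron types it ran from 7913 CPM in L6 CT neurons to 13902 in L4/5 IT neurons, and from 2508 to 7943 CPM outside neurons, with vascular cells lowest and OPC highest. It was higher in Chd8het in 4 of 4 pairs in L2/3 IT, L5 ET, L5/6 NP, L6 CT and L6 IT neurons, oligodendrocytes and microglia, in 1 of 4 in the Lamp5 type, in 2 of 4 in the Car3, Sst and Vip types and in pooled excitatory neurons and interneurons, and in 3 of 4 in the other tested types. In L6 CT neurons the WT libraries lay between 6897 and 8261 CPM and the Chd8het libraries between 7718 and 8702, so that the groups overlapped. In microglia they did not, with 2430 to 3046 CPM in WT and 3098 to 3878 in Chd8het. The excitatory and interneuron markers that were higher in mean in Chd8het microglia are given above, and their part in this sum was not tested. A sum over nuclei does not tell fewer nuclei of a subtype from less RNA per nucleus, which holds for every level given here.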

How the data were processed

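The deposited matrices hold whole-number UMI counts per barcode and gene, which the authors had limited to called barcodes. The submitters' processing notes name mm10, STAR 2.7.9a, Cell Ranger and STARsolo. How the authors called cells and whether introns or strand were used is not given in the sources used here. Members and the gene lists were chosen with earlier results of these data known. Doublets were predicted per library with Scrublet in scanpy 1.11.5, and nuclei were assigned to the class with the best score over its marker list where it led the next by a margin. Channel genes are not among the markers. Coordinates and lengths are from GENCODE on GRCm38.

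Counts were summed per library and cell type with at least 30 nuclei in every library, filtered with a minimum count of 10, scaled by TMM and tested with edgeR 4.0.16 (R 4.3.3, limma 3.58.1), two-sided, with Benjamini-Hochberg adjustment over all genes in each contrast. Genotype was fitted with sex, and neuron types and classes with library as a block. Standard errors were derived from the F statistic. Levels (CPM) are counts per 1000000 UMIs of that library and type. Tests were checked on simulated counts. There the genotype test with sex recovered 0% to 2.33% of 1.5-fold and 57.6% of 2-fold changes in L2/3 IT neurons. In the Sst type it recovered 27.5% to 32.5% of 1.5-fold and 77.6% of 2-fold changes. The test of the difference of the genotype effect recovered 34% to 40% and 64.4%. Litter pairs are not identified in the labels. Libraries that share sex and replicate number served as pairs. Their deviations from the genotype means correlated in 76 of 76 combinations of pair and cell type (r 0.118 to 0.613). Replicate number is also index type, and both libraries of a pair share their sex, so this does not show that they are litter mates. Alternatives were other scaling (RLE), no filter, DESeq2 1.42.0, doublets kept, a stricter gate, the replicate block, an index term, no sex term, WT libraries alone and each library left out.

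Genes are named by a rule: the 10 with the most neuronal UMIs, in each neuron type the 3 highest and the lowest called, the 4 highest and the 4 lowest called between classes, and the 5 smallest genotype p values. The other members are given by ranges and counts. Some members enter the counts and are otherwise not reported here.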

Additional observations from a re-analysis of the deposited data

Results flagged for a closer look

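Of 48 groups of 4 values examined, 24 in each genotype, 1 library of the 4 stood apart in 3, all of them in Chd8het, and chance alone sets about 1 in 20 groups apart by this measure. Kcnb2 in L6 CT neurons was at 379 CPM in Chd8het male 2 against 201 to 224 in the other 3 libraries. The summed level of the family was 9664 CPM in the L5 ET neurons of Chd8het female 2 against 10354 to 10434 in the other 3, and 10191 CPM in its interneurons against 9895 to 9917.

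In 2 of the 24 results examined the male pairs and the female pairs moved in opposite directions between genotypes. With 2 pairs in each sex such a pattern can arise by chance, and the difference was not tested. The summed level in the Car3 type was lower in Chd8het by 325 and 587 CPM in the male pairs (-325.4 and -587.3) and higher by 879 and 121 CPM in the female pairs, a difference of -956.5 CPM between the mean changes. In pooled excitatory neurons the changes were -210.3 and -6.0 CPM in the male pairs and 310 and 313 CPM in the female pairs, a difference of -419.6 CPM.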

How the results depend on the processing

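Between genotypes, without a filter on low counts 3 channel genes were called by edgeR (Kcnc2 in L5/6 NP neurons, log2 0.93, Kcnh8 in L5/6 NP neurons, log2 -1.51, and Kcnb2 in oligodendrocytes, log2 0.59), among 207 of 387236 gene tests. When each library was then also left out in turn, chosen after seeing the data, the calls were kept in 6, 3 and 3 of 8 cases. Kcnh8 changed sign without WT female 1 (log2 0.050, adjusted p = 0.99, edgeR), which is at 72.4 CPM against 3.78 to 11.4 in the other 7 libraries. Kcnb2 fell to 0.28 without Chd8het male 2, and Kcnc2 to 0.70 (adjusted p = 0.33, edgeR) without WT male 1. Under the other single alternatives, each left-out library included, the count stayed at 0. With the replicate block for the pairs 0 channel genes were called between genotypes, 19 between neuron classes, 101 between neuron types and 0 for the difference of the genotype effect, and the block changed no call on a named gene. Calls between classes ranged from 18 to 20 over the alternatives and those between types from 101 to 115. With 1 library left out they ranged from 18 to 19 and from 101 to 108, and for the difference of the genotype effect the count was 0 throughout. Of 796 values of named genes, 793 kept their direction and their side of the threshold. The exceptions were Kcnc2 without the filter, Kcng2 in the Car3 type with a stricter gate, and Kcnh8 in L5/6 NP neurons without WT female 1. The cause was not tested. None of the 796 changed sign. Kcnh8 in L5/6 NP neurons and Kcns1 in L4/5 IT neurons gave no value under settings in which they failed the filter. The RLE scaling moved the median of all genes between neuron classes by 0.005. Depth limits the rarer types: the smallest sum of a tested type, in vascular cells, held 265279 UMIs, so members of a few UMIs per library could not be compared there.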

Other observations

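L6b neurons, the deepest excitatory layer, entered the pooled excitatory neurons but no comparison of types, because only 7 to 24 nuclei per library were gated. Their channel RNA was led by Kcnh7, at 1363 to 2820 CPM over the 8 libraries (median 1672), ahead of Kcnd2 at 805 to 1489 CPM (median 1074). Kcnq5, which is at 3084 CPM in the Car3 type, was at 105 to 979 CPM (median 243) in L6b, on 10 to 61 UMIs per library. The mean of Kcnq5 in microglia was 507 CPM, above that median, so by the microglial guide alone its level in L6b is not told apart from background. The summed level of the family was 5681 ± 1186 CPM (SD, n = 8), lower than the mean of each of the 12 tested neuron types, and the difference was not tested.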
